A study of Oryza sativa with 18 samples.

Results

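Peaks of N6-methyladenosine (m6A) that the deposited annotation places in an internal exon numbered 3112 of the 58134 peaks listed for rice panicles and flag leaves. A peak was taken when its position class was an exon and that exon was neither the first nor the last of the gene. The list of booting panicles held 968 such peaks of 19083 (5.07%), the list of flowering panicles 1121 of 19502 (5.75%) and the list of flag leaves 1023 of 19549 (5.23%). They lay in 789, 879 and 781 genes, 1425 in all, and 1408 of those were in the deposited expression table. In each list most other peaks were classed as 3' UTR, 46002 over the 3 lists.

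The plants were field-grown Nipponbare, a japonica cultivar of rice. Panicles were taken at the booting stage on 3 August and at the flowering stage on 14 August, and flag leaves, the uppermost leaves, were taken at the flowering stage, each at about 3 PM. Each of the 3 groups had 3 input libraries and 3 libraries of RNA pulled down with an antibody against m6A. The 3 pull-downs of a group gave a single peak list, so a peak has 1 fold (pull-down over input) and 1 false discovery rate (FDR) per group and no replicate error. Panicle stage and day of collection cannot be told apart. The labels give no day for the flag leaves, and booting panicles differ from them in organ and stage together. The labels also do not say whether replicates came from separate plants, so p-values measure only the spread between the labelled replicates.

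m6A is a methyl mark that a methyltransferase complex writes on adenosines of messenger RNA and that YTH-domain proteins, called ECT proteins in plants, read. It is known to bear on the stability, processing and translation of transcripts, and in Arabidopsis its loss disturbs embryo and shoot development. In plants and animals the mark is concentrated around the stop codon and in the 3' UTR, while long internal exons are a lesser site. Peaks away from the transcript end are therefore usually described apart from those at the end.

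A large share of the peaks classed as internal ran on into the last exon. Peaks are listed with blocks, 1 for each exon they cover, and the exon number in the annotation was that of the block nearest the 5' end. Counted from there, 546 peaks of booting panicles (56.4%), 529 of flowering panicles (47.2%) and 508 of flag leaves (49.7%) reached the last exon. The others, 422, 592 and 515, covered internal exons only. Peaks that ended exactly at the annotated gene end numbered 417 (43.1%), 298 (26.6%) and 375 (36.7%). The class name therefore held for the whole length of a peak in 43.6%, 52.8% and 50.3% of the rows, and both kinds are kept apart where it matters.

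The midpoints of peaks on internal exons only lay at a median of 52.6%, 51.0% and 50.6% of the gene from its 5' end in booting panicles, flowering panicles and flag leaves. Those reaching the last exon lay at 84.9%, 87.1% and 85.5%. For 3' UTR peaks the medians were 93.8%, 93.6% and 93.2%. Sorting by whether the last exon was reached itself sets the 2 kinds apart in position, so this difference was no separate finding. Where the gene's mean input was 5 FPKM or more (defined below), the medians on internal exons only were 39.7%, 37.1% and 46.8%. Those of peaks reaching the last exon were then 90.7%, 90.3% and 89.6%.

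**Figure D1:**
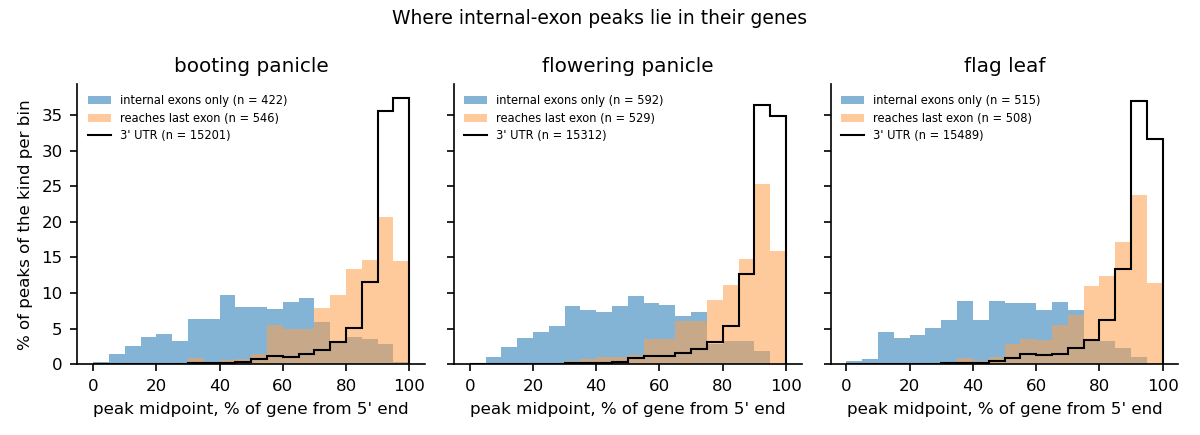
Midpoint of each peak as a percentage of the gene's length from its 5' end (x axis, bins of 5%) against the percentage of peaks of that kind in the bin (y axis), 1 panel per peak list. Blue bars are peaks on internal exons only, orange bars are internal-exon peaks that reach the last exon, and the black line is 3' UTR peaks; the blue bars spread around the middle of the gene and the orange bars rise towards the 3' end.

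The host genes had a median of 7 exons in each list. Exon 2 was the first exon covered in 25.6%, 29.3% and 28.5% of peaks, and the next-to-last exon in 38.6%, 40.6% and 36.4%. The exonic length of a peak had a median of 268, 240 and 270 bases, against 419, 420 and 447 bases for 3' UTR peaks. A single block was seen in 23.8%, 28.3% and 26.0%.

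Most internal-exon peaks lay in genes with little input in the group where the peak was listed, as did exon peaks of the other kinds. The mean input level of the host (FPKM, fragments per kilobase of transcript, scaled to library size) had a median of 0.715 over the host genes of booting panicles, 0.551 over those of flowering panicles and 0.641 over those of flag leaves. Over hosts of 3' UTR peaks the medians were 12.1, 11.03 and 8.72 FPKM. Hosts under 1 FPKM carried 583 (60.5%), 727 (65.6%) and 643 (62.9%) of the internal-exon peaks with a level. They carried 8.18%, 8.14% and 15.1% of 3' UTR peaks, 62.3%, 56.6% and 63.7% of first-exon peaks, and 64.5%, 68.1% and 63.9% of last-exon peaks. Of peaks in single-exon genes they carried 65.3%, 61.4% and 55%. In bulk organs fewer cells of a type and less RNA per cell cannot be told apart.

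The fold was highest where the host was lowest. In booting panicles its median fell from 7.70 for hosts under 1 FPKM to 4.52 for hosts at 1 to 5 FPKM, 3.71 at 5 to 20 and 3.44 at 20 or more. In flowering panicles it was 7.89, 4.33, 3.69 and 3.24, and in flag leaves 8.13, 4.23, 3.89 and 2.60. The listed FDR was also highest where the host was lowest. Its median log10 values were -2.05, -1.96 and -2.64 under 1 FPKM and -221, -138 and -69.4 at 20 FPKM or more. Among 3' UTR peaks the median fold was higher in hosts at 5 FPKM or more (13.3, 9.34 and 13.3) than under 1 FPKM (9.24, 7.89 and 9.14). These are descriptions over peaks, which are not replicates, and no test was made of them.

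At low levels the folds also took few distinct values. Of internal-exon peaks with a fold below 10 and a host under 1 FPKM, 50.9% in booting panicles, 63.1% in flowering ones and 49.3% in flag leaves were whole multiples of 1 step (about 1.03, 0.986 and 1.02) within 0.005. For hosts at 5 FPKM or more the shares were 3.05%, 5.33% and 3.64%, where rounding alone gives about 1%. A fold of 6.90 was listed for 120 internal-exon peaks of flowering panicles. An FDR above 0.05 was listed for 196 (20.3%), 263 (23.5%) and 177 (17.3%) of internal-exon peaks. The shares were 1.70%, 1.44% and 2.49% for 3' UTR peaks, 28.0%, 22.2% and 19.2% for first-exon peaks and 23.2%, 26.9% and 20.9% for last-exon peaks.

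**Figure D2:**
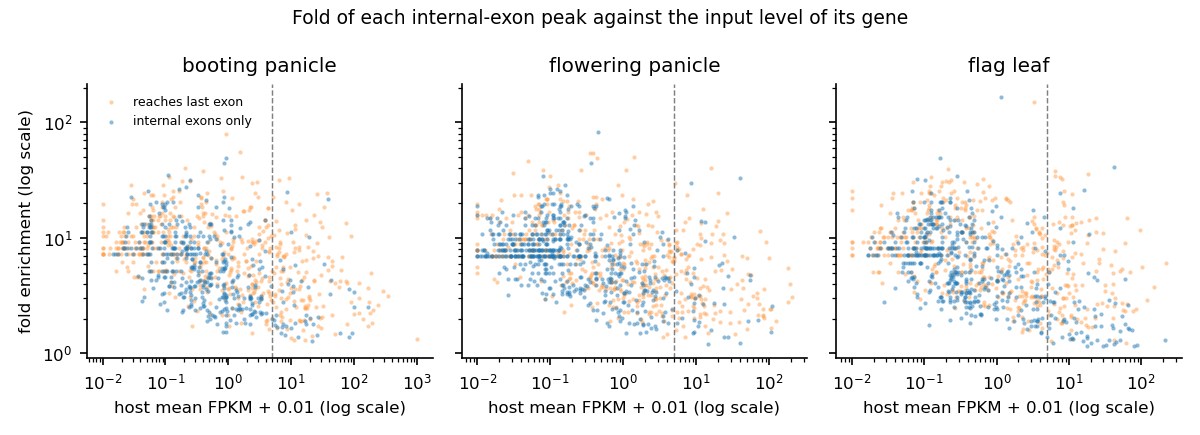
Fold of each internal-exon peak (y axis, log scale) against the mean input FPKM of its gene plus 0.01 (x axis, log scale), 1 panel per list; the dashed line marks 5 FPKM. Points left of 1 FPKM line up in rows of equal fold, and the median fold falls from 7.70, 7.89 and 8.13 under 1 FPKM to 3.44, 3.24 and 2.60 at 20 FPKM or more.

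Descriptions of a transposable element or a polyprotein were frequent among the hosts. They belonged to 269 peaks of booting panicles (27.8%), 357 of flowering panicles (31.9%) and 348 of flag leaves (34.0%). The shares were 25.1%, 24.6% and 29.6% for first-exon peaks and 22.7%, 23.5% and 24.4% for last-exon peaks, and 0.388%, 0.425% and 0.368% for 3' UTR peaks. Of the 1425 hosts 338 (23.7%) had such a description, against 3.58% of genes with any peak. Among the 297 hosts at 5 FPKM or more 9 did (3.03%), against 0.282% of genes at that level with any peak. No difference between these shares was tested. In a single list the gene with the most internal-exon peaks was of this kind, with 9 in booting panicles (LOC_Os02g57930), 7 in flowering panicles (LOC_Os07g45410) and 8 in flag leaves (LOC_Os12g43179). When overlapping peaks of all lists were merged, LOC_Os01g02740, a hypothetical protein, had the most stretches, 8, and the polyprotein gene LOC_Os07g45410 had 6. LOC_Os07g45410 carried 6 internal-exon peaks of fold 3.42 to 31.8 in booting panicles, 7 of fold 4.44 to 25.6 in flowering ones and 1 of fold 8.13 in flag leaves. Its input level was at most 0.283 FPKM in any library. Copies of such elements resemble each other, so how reads were shared between them makes these values uncertain.

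The share of peaks met again in both other lists was larger at expressed than at weakly expressed hosts. An internal-exon peak overlapped one in both other lists, by 1 base or more, for 382 peaks of booting panicles (39.5%), 392 of flowering panicles (35.0%) and 390 of flag leaves (38.1%). With the host at 5 FPKM or more this held for 137 of 191 (71.7%), 119 of 172 (69.2%) and 118 of 199 (59.3%). With the host under 1 FPKM it held for 27.1%, 22.01% and 28.6%. The 3 lists were each pooled over replicates, so no test between the shares was made.

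**Figure D3:**
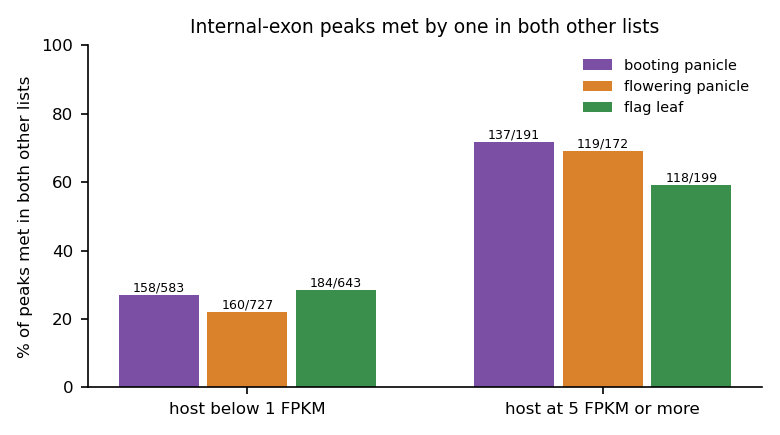
Percentage of internal-exon peaks overlapped by an internal-exon peak in both other lists (y axis), for hosts under 1 FPKM and at 5 FPKM or more (x axis), with bars coloured by list and the counts above each bar. The 3 bars at 5 FPKM or more stand at 71.7%, 69.2% and 59.3% and those under 1 FPKM at 27.1%, 22.01% and 28.6%.

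No peak of any class in either other list overlapped 242 internal-exon peaks of booting panicles (25%), 224 of flowering panicles (19.98%) and 306 of flag leaves (29.9%). Over all listed peaks the shares were 7.75%, 7.18% and 11.7%, and over first-exon peaks 29.1%, 24.4% and 33.9%. With the host under 1 FPKM they were 31.7%, 24.2% and 33.9% for internal-exon peaks and 26.8%, 25.3% and 24.2% for all listed peaks. Among hosts at 5 FPKM or more, 12 (6.28%), 13 (7.56%) and 44 (22.1%) internal-exon peaks had no such overlap, against 2.2%, 2.2% and 6.09% of all peaks at that level. The shares there were 12.6%, 17.8% and 16.7% for first-exon and 9.89%, 18.5% and 29.5% for last-exon peaks. For 5' UTR peaks they were 8.46%, 10.4% and 9.68%, and for 3' UTR peaks 1.39%, 0.951% and 4.84%. By gene, 355 of the 1425 hosts (24.9%) had an internal-exon peak in all 3 lists. A further 225 (15.8%) had one in booting panicles alone, 264 (18.5%) in flowering panicles alone and 267 (18.7%) in flag leaves alone. Of the 19538 genes with a peak of any class, 71.8% had one in all 3 lists, and 4.85%, 4.61% and 7.18% had one in a single list. Counted within a class, the share in all 3 lists was 21.5% for first-exon, 14.4% for last-exon and 16.0% for single-exon peaks. It was 42.6% for 5' UTR and 79.0% for 3' UTR peaks. The host had several internal-exon peaks in 112, 149 and 134 cases, and it had a 3' UTR peak as well in 71 (8.999%), 82 (9.33%) and 96 (12.3%).

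Among genes with peaks on internal exons only in all 3 lists and at 5 FPKM or more in every group, LOC_Os01g05420 had the highest lowest fold. It encodes the transcription factor IWS1, which in Arabidopsis and yeast works with the elongating RNA polymerase II. On the plus strand of chromosome 1 its peak covered exon 2 of 11 in booting panicles (2561285 to 2561669, fold 21.9). In both other lists it covered exons 2 to 3 (2561255 to 2562653, fold 32.7 in flowering panicles and 41.3 in flag leaves). Coordinates are those of the lists, with a genome build not given in the sources used here. In every list the peak ended at least 2720 bases before the gene end, and a separate 3' UTR peak of the same gene had folds of 25.8, 16.1 and 18.8. Input levels of IWS1 were 39.3, 40.5 and 37.1 FPKM in booting panicles, 40.6, 39.0 and 40.8 in flowering ones and 42.3, 41.8 and 43.1 in flag leaves. The 2 panicle groups overlapped, and none of the 3 comparisons was called (log2 change of flowering against booting panicles 0.04, SE 0.06, limma adjusted p = 0.502).

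IWS1 was 1 of 14 genes that met a description chosen after the values were seen. These genes had overlapping peaks on internal exons only in all 3 lists at a log10 FDR of -5 or less, with a mean of 5 FPKM or more in every group. Of the 14, 11 also had a 3' UTR peak in every list. By lowest fold the next was LOC_Os03g31839, described as a MuDR transposable element protein, with folds of 25 in booting panicles, 13.8 in flowering ones and 25.9 in flag leaves from exon 6 of 19. Its input was 7.68 to 9.69, 12.4 to 13.6 and 15.6 to 17.2 FPKM, so its groups did not overlap, but no change reached the threshold of 1.

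LOC_Os07g13590, RETICULATA-RELATED 1, belongs to a family of chloroplast proteins known from leaf reticulation mutants of Arabidopsis. Its peak in exon 2 of 9 had folds of 5.78, 5.87 and 6.30 in booting panicles, flowering panicles and flag leaves. LOC_Os11g36390 encodes replication factor C subunit 1, part of the complex that loads the sliding clamp in DNA replication. Its peak in exon 3 of 22 had folds of 4.30, 6.09 and 5.01. Input of replication factor C subunit 1 was 42.0, 43.5 and 41.6 FPKM in booting panicles, 21.3, 22.5 and 23.6 in flowering ones and 17.9, 19.1 and 18.8 in flag leaves. The 3 groups did not overlap, and the gene rose in booting panicles against flag leaves (log2 change 1.15, SE 0.059, limma adjusted p = 2.03e-08), a call lost under quantile normalization (0.78). Its change of -0.89 in flowering against booting panicles did not reach 1.

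LOC_Os08g40260, squamosa promoter-binding-like protein 15, is a transcription factor of the SPL family, whose members act in rice panicle and shoot branching. A short peak in exon 2 of 11 had folds of 2.53, 2.59 and 2.60 in the 3 lists. Input was 180.0, 171 and 152 FPKM in booting panicles, 112, 106 and 111 in flowering ones and 64.0, 66.2 and 67.4 in flag leaves. The 3 groups were in descending order without overlap, and the SPL gene rose in booting panicles against flag leaves (log2 change 1.33, SE 0.073, limma adjusted p = 3.08e-08). LOC_Os03g59760, an E3 ubiquitin-protein ligase described as CIP8, had its peak in the middle exon of 3, with folds of 3.64, 4.35 and 4.38 at mean levels of 83.9 ± 1.28, 55.5 ± 0.79 and 59.8 ± 1.78 FPKM (SD, n = 3).

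LOC_Os01g07070, described as TFIID subunit 15b and so a component of the general transcription factor that binds promoters, carried a small peak in exon 4 of 7. Its folds were 3.49 in booting panicles, 14.1 in flowering ones and 3.67 in flag leaves. In the same gene a 5' UTR peak of fold 124, 150 and 65.0 lay upstream of it. The last of the 14 by fold was LOC_Os03g17860, a protein disulfide isomerase-like protein, with folds of 1.43, 1.40 and 1.33. Strength within the 14 genes thus ran from just above the input to more than 20-fold in every list.

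**Figure D4:**
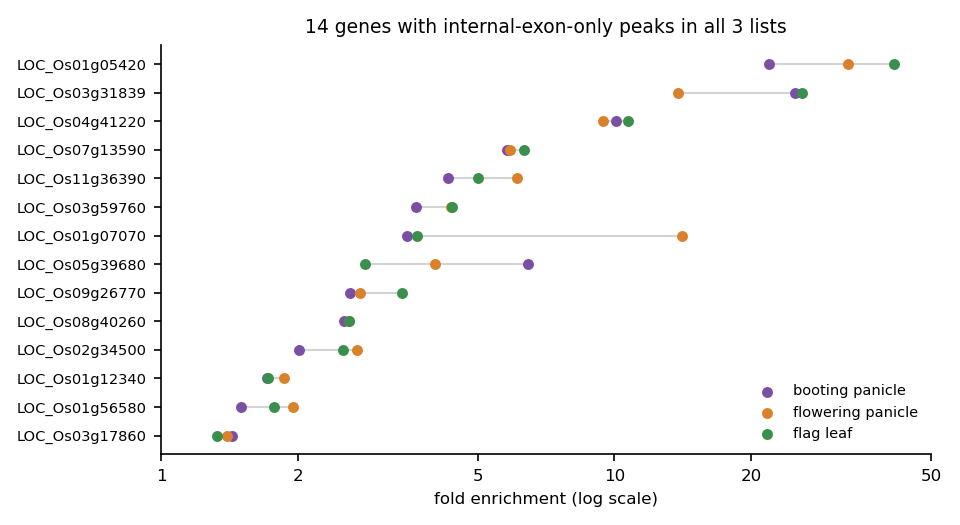
Fold (x axis, log scale) in each of the 3 lists (coloured points, joined by a grey line) of the 14 genes with overlapping peaks on internal exons only in every list, a log10 FDR of -5 or less and a mean of 5 FPKM or more. LOC_Os01g05420 (IWS1) is at the top with 21.9, 32.7 and 41.3, and LOC_Os03g17860 is at the bottom with 1.43, 1.40 and 1.33.

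Several of the strongest peaks in expressed, described hosts were of the other kind and reached the last exon. LOC_Os07g33100 encodes the tRNA wybutosine-synthesizing protein 2/3/4, which modifies a guanosine of phenylalanine tRNA in yeast. Its peak reached exon 11 of 11 on chromosome 7 and stopped at the gene end, with folds of 31.4, 29.9 and 32.3 in booting panicles, flowering panicles and flag leaves. LOC_Os02g58590, the N-acetylglucosaminyltransferase I that starts complex N-glycans, had folds of 24.7, 16.3 and 14.2 over exons 16 to 18 of 18. LOC_Os02g56565, diphthine-ammonia ligase, the last enzyme of diphthamide synthesis on elongation factor 2, had folds of 17.3, 14.8 and 13.7 over exons 11 to 12 of 12. None of these 3 genes was called in a comparison.

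Other peaks of this kind lay in genes of varied roles. LOC_Os01g66580, described as TFIID subunit 7-like, had folds of 18.5, 24.6 and 6.07 in booting panicles, flowering panicles and flag leaves, at exons 6 to 8 of 8. LOC_Os04g58350, subunit 4 of the transcription and repair factor TFIIH, had folds of 7.22, 7.97 and 12.2 over exons 13 to 15 of 15. LOC_Os10g29560, an RBBP6-type E3 ubiquitin ligase, had folds of 8.96, 9.51 and 10.6 up to exon 15 of 15, and its 3' UTR peak had 23.4, 22.1 and 19.9. That peak stopped 718 bases before the gene end. LOC_Os02g30800, the catalytic subunit of DNA polymerase epsilon, had folds of 11.7, 8.49 and 24.4 over exons 49 to 50 of 50. Its input fell from 5.59, 7.16 and 6.63 FPKM in booting panicles to 1.67, 2.00 and 2.02 in flowering ones and 0.255, 0.214 and 0.203 in flag leaves. All 3 comparisons of the polymerase gene were called. With a pseudocount of 5 only booting panicles against flag leaves was, and under quantile normalization flowering panicles against flag leaves was not.

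Genes of translation made up 15 of the 297 hosts at 5 FPKM or more (5.05%), against 2.53% of all genes at that level with any peak, and 17 hosts in all; no difference between these shares was tested. Of their 41 internal-exon peaks, 1 covered internal exons only and 40 ran into the last exon. The ribosomal protein genes L11-like (LOC_Os01g10820), L10A (LOC_Os01g64090), L5 (LOC_Os01g67134), S8 (LOC_Os02g28810), S7-like (LOC_Os03g18580), S27 (LOC_Os04g27860), S10 (LOC_Os04g35090), S12 (LOC_Os07g05580) and L44 (LOC_Os07g26740) had such a peak in all 3 lists. L10A had folds of 5.71 in booting panicles, 5.24 in flowering ones and 12.6 in flag leaves, S8 had 6.77, 7.03 and 11.1, and L5 had 3.14, 3.96 and 5.60. The median fold over the 41 peaks was 3.73.

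Input of L10A was 39.8, 44.5 and 51.1 FPKM in booting panicles, 20, 22.9 and 23.1 in flowering ones and 12.1, 10.2 and 8.85 in flag leaves. The groups descended without overlap, and L10A rose in booting panicles against flag leaves by 2.02 (SE 0.12, limma adjusted p = 5.91e-08). Of the 16 translation hosts tested, 9 rose and 1 fell in booting panicles against flag leaves, where 36.4% of all genes tested were called higher and 17.7% lower. Their median log2 change was 1.08, beside 0.51 over all genes tested. In flowering against booting panicles 2 rose and none fell, where 18.1% were called higher and 15.3% lower; with equal library sums 2 rose and 2 fell, and under quantile normalization 2 rose and 3 fell. Without any 1 of the 3 flowering panicle libraries 1 rose and at most 1 fell, with 15 hosts tested. A gene at 1 FPKM or more in fewer than 3 of the libraries left was not tested. In that comparison the median of the 16 was -0.51, beside -0.09 over all genes. Near-identical ribosomal protein copies can share reads, so single values are uncertain.

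Hosts described as transcription factors numbered 34, and their 57 peaks covered internal exons only in 40 cases. At 5 FPKM or more they were 14 of 297 hosts (4.71%), against 2.20% of genes at that level with any peak. One that differed between organs was LOC_Os10g37240, a putative transcription factor with a peak in exon 3 of 6 at the same place in every list (chromosome 10, 19932971 to 19933180). Its folds were 5.97 in booting panicles, 10.2 in flowering ones and 11.2 in flag leaves. Its input was 33.9, 34.4 and 30.1 FPKM in booting panicles, 32.4, 30.2 and 35.3 in flowering panicles, and 2.94, 3.23 and 3.20 in flag leaves. Panicle libraries overlapped each other and lay above every leaf library, and the gene rose in flowering panicles against flag leaves (log2 change 3.03, SE 0.08, limma adjusted p = 3.41e-10).

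The floral MADS-box genes gave 2 different pictures. LOC_Os05g11414 (MADS58, a C-class gene of floral organ identity) had internal-exon peaks reaching exon 8 of 8 in booting panicles (fold 3.04) and flowering panicles (fold 2.70). Its input was 21.1, 18.1 and 17.8 FPKM in booting panicles, 56.2, 78.9 and 82.2 in flowering ones and at most 0.384 in flag leaves. The 3 groups did not overlap, and MADS58 rose in flowering against booting panicles by 1.86 (SE 0.16, limma adjusted p = 2.16e-06). LOC_Os02g45770 (MADS6, a gene of floral meristem identity) had an internal-exon peak in flag leaves alone, of fold 14.2, where its input was 0.0506 to 0.375 FPKM. In both panicle groups, at 76.3 to 85.0 FPKM, an overlapping peak was classed as 3' UTR, with folds of 15.0 and 13.4. The starts of these peaks on chromosome 2, at 27883315 in flag leaves, 27883344 in flowering panicles and 27883373 in booting panicles, lay close together.

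Of the 29 transcription factor hosts tested, 17 rose and 5 fell in booting panicles against flag leaves, where 36.4% of all genes tested were called higher and 17.7% lower. In flowering panicles against flag leaves 12 rose and 1 fell, where 31.0% of all genes tested were called higher and 11.5% lower; under quantile normalization 8 rose and 5 fell. In flowering against booting panicles 8 rose and 9 fell, where 18.1% were called higher and 15.3% lower. LOC_Os04g51070, bHLH91, which belongs to a family with roles in anther development, was at 43.5, 32.1 and 42.7 FPKM in booting panicles and at most 5.39 in flowering ones and 0.110 in flag leaves. bHLH91 fell by 2.94 in flowering against booting panicles (SE 0.2, limma adjusted p = 3.26e-07). Its internal-exon peak was listed in flag leaves, the organ with the least input, at a log10 FDR of -0.437.

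The remaining fixed lists held few hosts. Protein kinases were 18 of 1425 hosts (1.26%), against 3.18% of genes with any peak, and 2 of the 18 reached 5 FPKM. Only 429 of the 1425 hosts had an informative description. A transposable element or polyprotein was described for 23.7% of hosts and 3.58% of genes with any peak. This lowers the share left to the other lists, and no difference between shares was tested. The LRR receptor-like kinase LOC_Os01g59570 had folds of 21.1, 44.4 and 6.92 in exons 2 to 3 of 12, at mean levels of only 0.429, 0.356 and 0.279 FPKM. Ubiquitin-system proteins made up 13 hosts, transporters 15, helicases 5, chromatin proteins 5, trafficking proteins 5, motors and tubulins 5, disease resistance proteins 4, RNA-processing proteins 4 and pentatricopeptide repeat proteins 3. No host was a photosynthesis gene, where such genes made up only 0.165% of genes with any peak. No test of this absence was made. Among the helicases LOC_Os07g10250, DEAD-box RNA helicase 52B, had a peak in exon 2 of 7 in all 3 lists, with folds of 3.40, 4.81 and 2.91. All 4 disease resistance hosts had peaks on internal exons only, 11 peaks with a median fold of 2.81.

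The called share of hosts in either list lay below that of all genes tested in each of the 3 comparisons. In flowering against booting panicles 132 of 532 hosts tested were called (24.8%), where the share over all 23355 genes tested was 33.4%. In flowering panicles against flag leaves 192 of 569 hosts were called (33.7%), where the share was 42.5%. In booting panicles against flag leaves 289 of 589 hosts were called (49.1%), where the share was 54.0%. In that order, hosts with an internal-exon peak in both lists were called in 14.9%, 25.1% and 39.5%. Hosts with one in the first group and no peak in the second were called in 34.0%, 50.8% and 65.4%. The other way round the shares were 48.1%, 29.8% and 57.3%. These last sets held 50 to 82 hosts tested. Hosts with at least 1 FPKM in 3 libraries could be tested, and these were 532, 569 and 589 of the 1142, 1187 and 1155 hosts in the table. Hosts of peaks on internal exons only, taken after seeing the data, were called in 58 of 217 (26.7%), 105 of 259 (40.5%) and 139 of 263 (52.9%), so in both comparisons with the leaf they lay near the share of all genes. The gap varied with the pseudocount. At 0.1 the shares of hosts and of all genes were 37.0% and 41.2%, 47.1% and 52.4%, and 59.3% and 62.2%, in the same order. At 5 they were 9.59% and 18.7%, 12.7% and 22.7%, and 24.8% and 33.5%. The comparisons share groups, and no difference between these shares was tested.

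By direction, 59 hosts rose and 73 fell in flowering against booting panicles (11.1% and 13.7%), where 18.1% and 15.3% of all genes tested did. Without booting panicle replicate 1, 2 or 3 the split was 59 against 50, 65 against 52 and 60 against 47. The hosts tested then fell from 532 to 490, 492 and 493. The filter of 3 libraries was kept, so genes at 1 FPKM or more in booting panicles alone dropped out. These fits therefore cannot show whether the split rests on 1 library. In flowering panicles against flag leaves 136 rose and 56 fell (23.9% and 9.84%), where 31.0% and 11.5% of all genes did. Without flag leaf replicate 1, 2 or 3 the hosts that fell were 29, 30 and 26, of 538, 538 and 537 tested. With all libraries 569 were tested, and genes at 1 FPKM or more in flag leaves alone dropped out in the same way. In booting panicles against flag leaves 207 rose and 82 fell (35.1% and 13.9%), where 36.4% and 17.7% of all genes did. Both splits against the leaf leaned on the scaling, since the median of all genes tested was 0.44 and 0.51 in these comparisons. Under quantile normalization, which moved those medians to -0.12 and 0.00, 63 of 201 called hosts and 126 of 257 were higher in the panicle. Checks of the organs fitted their labels: 22 leaf marker genes summed to 20800 to 21600 FPKM in flag leaves and 1390 to 2040 in booting panicles, and 5 panicle MADS genes summed to 5 to 7.71 in flag leaves and 683 to 703 in booting panicles. In flag leaves 4 of these 5 panicle genes had a mean below 1 FPKM.

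Several hosts rose in flowering panicles, where pollen markers were also high. LOC_Os09g36810, beta-galactosidase 12, had 4.97, 5.34 and 4.60 FPKM in booting panicles, 137, 182 and 161 in flowering ones and 1.38, 1.31 and 0.978 in flag leaves. It rose by 4.74 in flowering against booting panicles (SE 0.11, limma adjusted p = 3.24e-10). Its internal-exon peak was listed in booting panicles, with a fold of 1.98 over exons 17 to 19 of 21. The 6 pollen and anther markers summed to 21.5 to 24.0 FPKM in booting panicles, 8740 to 10100 in flowering ones and 11.2 to 33.6 in flag leaves. One of the 6 had a mean below 1 FPKM in flowering panicles and 2 did in flag leaves, and the part of pollen in these changes was not tested.

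LOC_Os03g12570, described as the DNA cytosine methyltransferase MET2a, had a peak on internal exons only of fold 12.2 in booting panicles (exons 21 to 23 of 30) and 4.65 in flowering panicles (exons 21 to 22). Its input was 1.44, 1.61 and 1.51 FPKM in booting panicles, 23.4, 32.4 and 25.3 in flowering ones and at most 0.102 in flag leaves. The groups did not overlap, and MET2a rose by 3.46 in flowering against booting panicles (SE 0.11, limma adjusted p = 2.38e-09). Within the list of booting panicles the log10 FDR was -55.3 for the internal peak of MET2a and -0.898 for its 3' UTR peak. Within the list of flowering panicles the values were -5.48 and -153. Such values cannot be compared between lists, and a shift between the 2 sites was not tested. LOC_Os11g44880, kinesin-4, a microtubule motor, rose in the same comparison by 3.48 (SE 0.11, limma adjusted p = 1.97e-09), from 2.54 to 2.81 up to 35.3 to 48.1 FPKM. Its internal-exon peaks were listed in booting panicles (fold 24.6) and flag leaves (fold 15.2) and not in flowering panicles, where a first-exon peak of fold 2.44 was listed.

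Other hosts fell as panicles went from booting to flowering. LOC_Os09g29460, HOX4, a homeodomain-leucine zipper factor, had 84.5, 83.9 and 106 FPKM in booting panicles and 34.6, 32.6 and 36.7 in flowering panicles, and fell by 1.37 (SE 0.09, limma adjusted p = 3.09e-07). Its peak in booting panicles was classed as exon 2 of 3 with a fold of 1.5, and longer peaks at the same 3' edge were classed as first exon in flowering panicles (1.97) and flag leaves (1.88). LOC_Os02g40430, a CLIP-associated protein of the microtubule tips, fell by 1.49 (SE 0.08, limma adjusted p = 8.64e-08), from 29.8 to 34.7 FPKM down to 10.2 to 10.9. Its peak over exons 20 to 21 of 21 had folds of 2.55, 3.13 and 3.16 in booting panicles, flowering panicles and flag leaves.

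Among hosts lower in booting panicles than in flag leaves were an enzyme of photorespiration and a phosphate exporter. LOC_Os07g01760, glutamate-glyoxylate aminotransferase 2 of photorespiration, had 30.1, 29.4 and 26.2 FPKM in booting panicles, 209, 169 and 203 in flowering ones and 1747, 1719 and 1749 in flag leaves. It fell by 5.88 in booting panicles against flag leaves (SE 0.09, limma adjusted p = 1.71e-11), and its internal-exon peak, of fold 2.03, was listed in booting panicles. An overlapping peak of flowering panicles at the same gene end was classed as last exon, with a fold of 1.45. LOC_Os06g29790, PHO1-3, a phosphate exporter, had a peak in exon 2 of 14 in booting panicles (fold 3.76) and flowering panicles (fold 3.08). Its input was 0.895 to 1.25, 7.43 to 8.15 and 24.2 to 25.2 FPKM in booting panicles, flowering panicles and flag leaves, and it fell by 3.60 in booting panicles against flag leaves (SE 0.09, limma adjusted p = 8.45e-11). Leaf markers moved with both genes, with 7010 to 9070 FPKM in flowering panicles, and the part of green tissue was not tested.

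**Figure D5:**
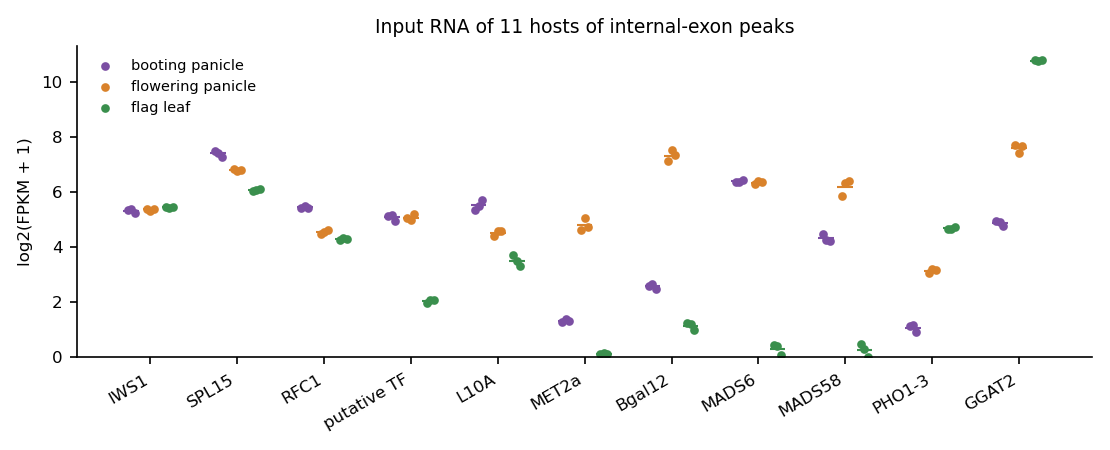
Input level, log2(FPKM + 1), of 11 hosts in the 9 input libraries; points are libraries, short lines are group means, and colours are groups. IWS1 is level over the groups, the SPL gene, replication factor C subunit 1 (RFC1) and L10A descend from booting panicle to flag leaf, MET2a, beta-galactosidase 12 (Bgal12) and MADS58 peak in flowering panicles, and PHO1-3 and glutamate-glyoxylate aminotransferase 2 (GGAT2) are highest in flag leaves.

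Some described hosts with a mean of 5 FPKM or more in all 3 groups had no listed peak of any class in the other lists. They were 1 of 60 in booting panicles (1.67%), 0 of 64 in flowering ones and 5 of 75 in flag leaves (6.67%). Among all described genes at that level with a peak of any class the shares were 0.408%, 0.137% and 2.43%. In booting panicles this was the RNase P subunit p30 gene LOC_Os12g01060 (fold 3.76, log10 FDR -2.05). The flag leaf genes included LOC_Os05g05800, a TIR1-like protein of auxin perception (fold 2.64), and LOC_Os01g50080, the ABC transporter B family member 4, whose peak in exon 6 of 10 had a fold of 2.18 and a log10 FDR of -43.1. Input of the ABC transporter was 11.2, 16.8 and 4.02 FPKM in booting panicles, 117, 65.7 and 96.3 in flowering ones and 28.5, 27.8 and 28.3 in flag leaves. The groups did not overlap, and the gene rose in flowering panicles against flag leaves (log2 change 1.65, SE 0.39, limma adjusted p = 0.00254). Its change of -1.5 in booting panicles against flag leaves was -0.99 and no longer called without booting panicle replicate 3.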

How the data were processed

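Per the labels, poly(A) RNA was cut to about 100 nt, 10% was kept as input, and dUTP stranded libraries were made. Per the submitters' processing notes, cutadapt, HISAT2, StringTie, HOMER and ChIPseeker were used; details not given in the sources used here include the peak caller, versions, genome build and strand setting. The authors deposited FPKM for 38663 genes in the 9 input libraries, summing to 504583 to 569592 per library. They deposited 1 peak list per group, with a fold (ratio of pull-down to input), a score and a p-value; per the file headers the log10 values are of p and FDR, and some are minus infinity, so they were handled as scores and used within a list only. The score equals the p-value and was not used. Depth is unknown: at the best-matching depth at most 49.6% of low FPKM of single-exon genes were whole reads within 0.1, so no count test was made.

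Expression was tested with limma 3.58.1 (R 4.3.3, trend) on log2(FPKM + 1) for 23355 genes with at least 1 FPKM in 3 libraries, where a gene was called when its adjusted p (Benjamini-Hochberg) was under 0.05 and its log2 change at least 1 either way; the fit was tested on simulated data. Changes of low genes are understated on this scale. Same-numbered replicates were not treated as pairs (residual correlations -0.189 to 0.118, 2 of 9 above 0.1). With 3 libraries per group these values cannot exclude a shared plant or batch. Members, lists and rules were chosen with earlier results of these data known. Genes named were, with an informative description, the 8 strongest peaks per list and the 10 in all lists (5 FPKM or more), up to 4 hosts with a peak in 1 group, the 5 genes with most peaks, the 4 largest changes each way (20 FPKM or more), and the 2 strongest of each function list; others are values chosen after being seen. Sequences and motifs are not reported here. Alternatives are in the closing section.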

Additional observations from a re-analysis of the deposited data

How the results depend on the processing

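Calls among hosts held within 1.5 times their number without the filter, with a pseudocount of 0.1, with equal library sums and with quantile normalization. With a pseudocount of 5 they were 51 in flowering against booting panicles, 72 in flowering panicles against flag leaves and 146 in booting panicles against flag leaves. Leaving out 1 input library gave 107 to 132, 163 to 192 and 259 to 289. The filter of 3 libraries was kept there, so genes at 1 FPKM or more in the thinned group alone were no longer tested. With a replicate block the calls were 132, 193 and 289. Taking only hosts of peaks on internal exons alone, an alternative chosen after seeing the data, gave 58, 105 and 139. Of called hosts, 70.8% were higher in flowering panicles and 71.6% in booting panicles than in flag leaves, and 31.3% and 49.0% under quantile normalization.

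The numbers of peaks in booting panicles, flowering panicles and flag leaves were 431, 448 and 454 at a log10 FDR of -5 or less. They were 438, 457 and 455 with at least 5 exons and 2 or more exons from either end, and 230, 317 and 266 with 1 block. Chosen after seeing the data, they were 422, 592 and 515 on internal exons only and 191, 172 and 199 with the host at 5 FPKM or more. The median fold was 5.68, 5.42 and 6.09 at the stricter FDR and 3.64, 3.56 and 3.30 with the host at 5 FPKM or more. On internal exons only it was 5.13 in booting panicles, 5.59 in flag leaves and still 6.9 in flowering panicles. Peaks met in both other lists, 1164 of 3112 by a base (37.4%), were 742 with 50% of both. They were 1428 by the same host gene and 1534 by a peak of any class. With hosts at 5 FPKM or more they were 374, out of the 191, 172 and 199 peaks of such hosts.

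Of 2886 alternative values for the 199 called changes of the genes named and of the listed hosts, 2744 stayed called, 141 in 82 changes did not, and 1 reversed: LOC_Os09g31390 (TGA2), flowering panicles against flag leaves, 1.01 and -0.01 under quantile normalization. Lists pooled over replicates and unknown depth limit what the peaks show.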
